A study of Arabidopsis thaliana with 12 samples.

Results

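The photosystem and light-harvesting genes are the 63 of 27827 probe sets, 1 per gene, on chromosomes 1 to 5 whose annotation text names a photosystem, a light harvesting complex or a chlorophyll a/b protein. Of these, 20 encode antenna proteins, 22 encode subunits of the photosystem cores and 21 encode assembly factors and related proteins. Their transcript levels were compared in detached leaves of Arabidopsis that were floated on water for 6 h, in 4 groups of 3 biological replicates with 1 array each: dcl1-9 in darkness, dcl1-9 in light, WT in darkness and WT in light. The plants were 4 to 5 weeks old and of Columbia background, and the dark treatment began early in their light period. The dcl1-9 allele is an insertion in DCL1, the enzyme that cuts miRNAs from their precursors. It lowers rather than abolishes the function, it came from another ecotype by repeated backcrossing, and homozygotes were picked by their phenotype among segregating progeny.

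As background, photosystem II splits water and photosystem I reduces ferredoxin, and each is a core of protein subunits surrounded by antenna proteins that bind chlorophyll and pass light energy inwards. The antenna proteins are all encoded in the nucleus, by the LHCB genes for photosystem II and the LHCA genes for photosystem I, whereas most of the core is encoded in the plastid. Nuclear photosynthesis genes are long known to be expressed more in light than in darkness, and many of them exist as small families of near-identical copies. Such copies can share probes, so the separate values of LHCB1.1 to LHCB1.5 and of LHCB2.1 to LHCB2.4 are less certain than those of single-copy genes.

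The values are array intensities on a linear scale, with array medians of 30 to 34.5 and maxima of 5448 to 6788. Fold-changes are differences of log2 intensity, a gene was called at an adjusted p under 0.05 in limma, and the 3 replicates of a group are the only measure of error. Arrays carry the replicate number of their labels. The mesophyll markers, which are genes of carbon fixation, had summed intensities of 6530 to 7160 in dcl1-9 dark, 7240 to 9090 in dcl1-9 light, 5770 to 6840 in WT dark and 6980 to 9120 in WT light. In darkness, 1 of these 6 markers was lower in dcl1-9 and 4 of 6 were lower in WT. The 3 guard cell markers summed to 238 to 320 in dcl1-9 dark, 292 to 511 in dcl1-9 light, 165 to 238 in WT dark and 163 to 307 in WT light. These 3 did not move together. In WT darkness KAT1 was called lower (−1.37), and MYB60 (1.02) and FMA (0.62) were called higher, on the log2 scale. In dcl1-9 darkness 0 were called. In light MYB60 was called higher in dcl1-9 than in WT (0.87). The summed level of the 4 root markers was at most 129 and that of the 3 flower markers at most 53.1. The part of these markers in the results was not tested. In these leaf extracts, fewer cells of a type and less RNA per cell cannot be told apart. DCL1 itself gave intensities of 67.4, 64.5 and 51.5 in dcl1-9 dark, 48.3, 41.8 and 36.5 in dcl1-9 light, 26.6, 21.3 and 23.1 in WT dark and 21.4, 21.4 and 17.1 in WT light. All of the dcl1-9 arrays were above all of the WT arrays. Where the probes lie relative to the insertion was not analysed here, so the DCL1 signal does not check the labels.

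Among the light arrays, 1 of each genotype stood low for these genes. Array 1 of dcl1-9 light had the lowest value of its group for 58 of 63 members, where 49.8% of the 18141 probe sets with a mean intensity of at least 20 had theirs. Array 2 of WT light had the lowest value of its group for 56 of 63 members, against 29.1% of those probe sets. WT light was spread at both ends, since its array 3 had the highest value of the group for 52 of 63 members. In dcl1-9 light the highest value lay on array 3 for 35 members and on array 2 for 26. Counts, medians and shifts that moved with the 2 low arrays are given with and without them. Leaving out low light arrays raises the light means of most members, and so deepens their falls in darkness.

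Darkness lowered far more photosystem and light-harvesting transcripts than it raised. In dcl1-9 leaves, 23 of the 63 members were lower in darkness and 2 were higher, where 12.9% of all probe sets were lower and 10.8% were higher. In WT leaves, 29 members were lower and 3 were higher, where 14.5% of all probe sets were lower and 12.8% were higher. The median log2 fold-change of the members was −0.24 in dcl1-9 and −0.40 in WT, beside 0.06 over all probe sets in both genotypes. Without both low light arrays, 28 members were lower in dcl1-9 and 37 in WT, with 2 higher in each. The 3 same-numbered dark and light arrays of dcl1-9 deviated together (correlations of 0.237 to 0.305), and with the replicate number as a block 25 members were lower and 4 were higher in dcl1-9 darkness, the added ones being LPA19 and At4g37230. In dcl1-9 the count of lower members was 15 without dcl1-9 dark array 1. In WT the count of higher members was 1 without WT light array 2 or WT dark array 3. No share of all probe sets is given for these refitted counts. They therefore do not show whether calling changed for the members alone.

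The same genes made up most of both counts. Of the members that were lower in darkness, 22 were called in both genotypes, 1 in dcl1-9 alone (PSBQ2) and 7 in WT alone (LHCB2.1, LHCB2.2, LHCB5, PSBQ1, PSBX, PSB29 and At3g05410). LHCB1.4 and PSAD2 were higher in darkness in both genotypes, and LPA19 was called higher in WT. The share of all probe sets called in both genotypes is not given here. The overlap of the calls is therefore not shown to be particular to these genes. A call in 1 genotype alone does not show that the genotypes differed, and the test of that difference follows further on.

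**Figure D1:**
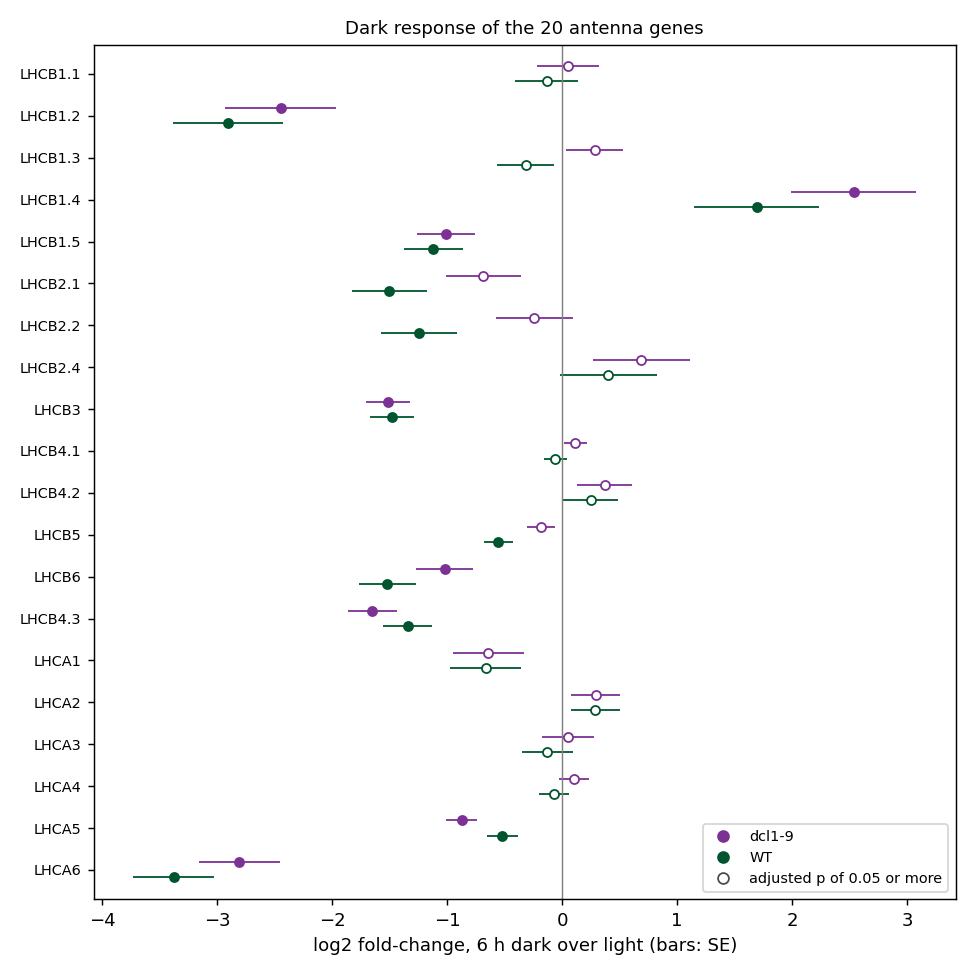
Log2 fold-change of darkness over light (x axis) for each of the 20 antenna genes (y axis), with dcl1-9 as the upper and WT as the lower point of each gene, bars of 1 SE, and filled points for an adjusted p under 0.05. LHCA6 and LHCB1.2 fell most in both genotypes, LHCB1.4 rose in both, and LHCA2, LHCA3, LHCA4, LHCB4.1 and LHCB4.2 lay between −0.13 and 0.37.

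The major antenna of photosystem II is built from the products of the LHCB1, LHCB2 and LHCB3 genes. Of its 9 genes, 3 were lower and 1 was higher in darkness in dcl1-9, and 5 were lower and 1 was higher in WT. Within the LHCB1 family the 5 copies went different ways. LHCB1.2 read 12.5, 16.1 and 21.4 in dcl1-9 dark against 50.7, 115 and 120.4 in dcl1-9 light, and 20.4, 8.66 and 41.95 in WT dark against 133, 103 and 228 in WT light. Every dark array was below every light array, and the log2 fold-change was −2.45 ± 0.48 (SE, adjusted p = 0.0015) in dcl1-9 and −2.91 ± 0.48 (SE, adjusted p = 3.2e-04) in WT. LHCB1.5 fell less, to 194, 275 and 314 in dcl1-9 dark against 336, 676 and 605 in dcl1-9 light, and to 392, 344 and 506 in WT dark against 879, 730.0 and 1091 in WT light. The dark and light arrays did not overlap in either genotype, and the log2 fold-changes were −1.01 ± 0.26 (SE, adjusted p = 0.0088) in dcl1-9 and −1.12 ± 0.26 (SE, adjusted p = 0.0038) in WT. Without dcl1-9 dark array 1, the fall of LHCB1.5 in dcl1-9 was −0.81 and the call was lost (adjusted p = 0.050).

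LHCB1.4 lies directly beside LHCB1.5 on chromosome 2, with 0 annotated genes between them in the TAIR10.1 annotation, and it went the opposite way. Its intensities were 167, 224 and 319 in dcl1-9 dark against 15.7, 72.6 and 53.8 in dcl1-9 light, and 339, 145 and 591 in WT dark against 67.97, 81.99 and 155 in WT light. In dcl1-9 every dark array exceeded every light array, and in WT the lowest dark array fell just inside the light range. The log2 fold-change was 2.54 ± 0.55 (SE, adjusted p = 0.0029) in dcl1-9, which is 5.8-fold, and 1.69 ± 0.55 (SE, adjusted p = 0.031) in WT, which is 3.23-fold. In WT the call was lost without WT light array 1, WT light array 2, WT dark array 1 or WT dark array 3, with log2 fold-changes of 1.22 to 1.62 and adjusted p of 0.078 to 0.15. LHCB1.1 and LHCB1.3, which neighbour LHCB1.2 on chromosome 1, were not called. The probe set of LHCB1.3 read 87.5, 102 and 93.4 in dcl1-9 dark, 55.1, 103 and 81.7 in dcl1-9 light, 89.8, 78.8 and 118 in WT dark and 132, 84.6 and 146 in WT light. The groups overlapped in both genotypes. LHCB1.1 stayed between 5.17 and 11.7 on all 12 arrays, at the low end of the scale.

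**Figure D2:**
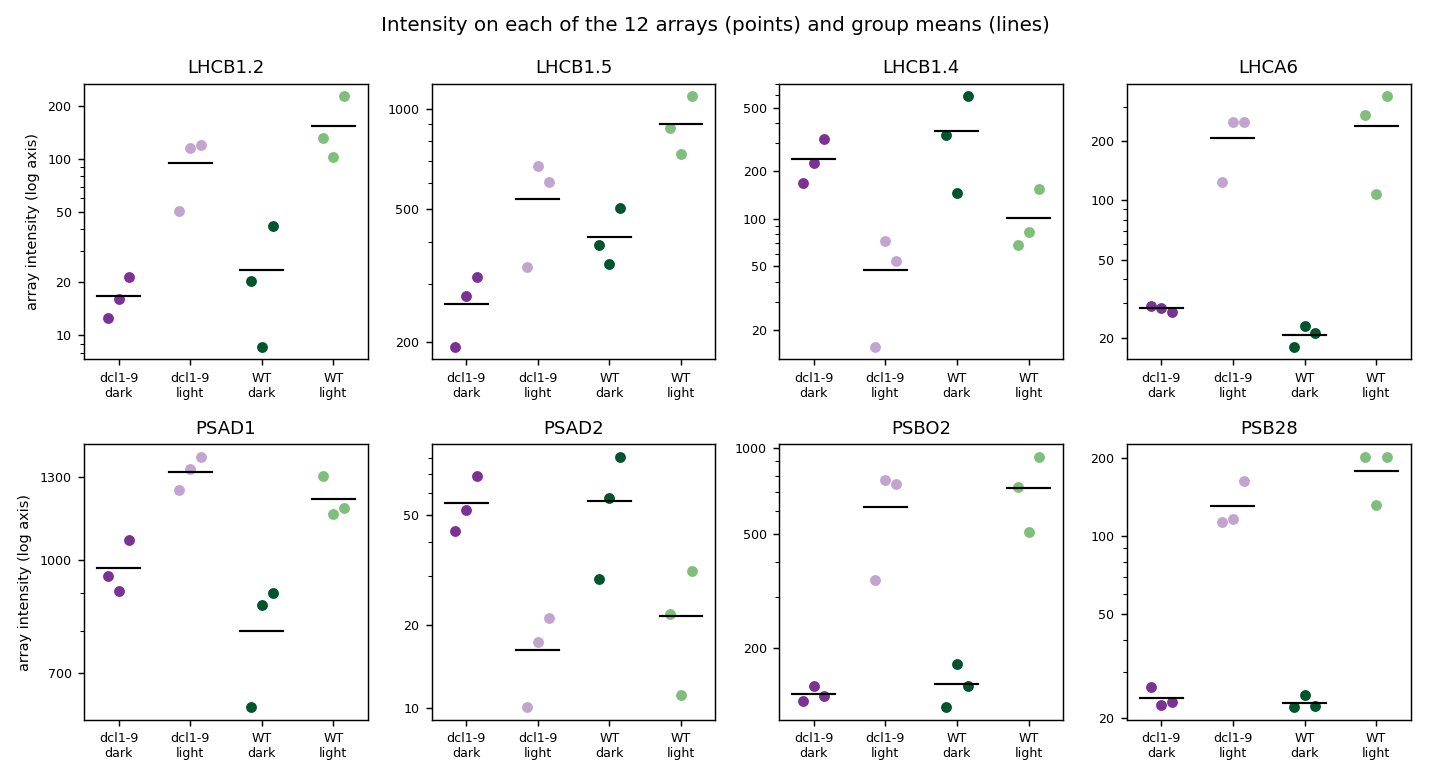
Intensity (y axes, logarithmic) of 8 genes on each array, in dcl1-9 dark, dcl1-9 light, WT dark and WT light (x axes), with a point per array and a line at the group mean. LHCB1.2, LHCB1.5, LHCA6, PSAD1, PSBO2 and PSB28 were lower on every dark array than on every light array of the same genotype, whereas LHCB1.4 and PSAD2 were higher in darkness and overlapped in WT.

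LHCB2.1 and LHCB2.2 code for the LHCB2 protein, whose phosphorylation is needed for the antenna to move between photosystems. LHCB2.1 read 42.9, 57.8 and 61.4 in dcl1-9 dark against 56.8, 105.04 and 107 in dcl1-9 light, and 53.99, 41.4 and 50.3 in WT dark against 119.9, 87.5 and 245 in WT light. The groups overlapped in dcl1-9 through light array 1 alone, and they were separate in WT. The log2 fold-change of LHCB2.1 was −0.69 ± 0.33 (SE, adjusted p = 0.16) in dcl1-9, or −0.99 with an adjusted p of 0.047 without dcl1-9 light array 1, and −1.50 ± 0.33 (SE, adjusted p = 0.0027) in WT. LHCB2.2 read 142, 160.5 and 187 in dcl1-9 dark against 113.89, 284 and 218 in dcl1-9 light, and 149.8, 147 and 158 in WT dark against 329.8, 226 and 622 in WT light. Its dark arrays lay inside the light range in dcl1-9 and below it in WT, where light array 3 was far above the rest. The log2 fold-change of LHCB2.2 was −0.24 ± 0.33 (SE, adjusted p = 0.67) in dcl1-9 and −1.25 ± 0.33 (SE, adjusted p = 0.011) in WT, and −0.85 with an adjusted p of 0.052 in WT without WT light array 3. LHCB2.4 was not called, at 0.69 ± 0.42 (SE, adjusted p = 0.29) in dcl1-9 and 0.40 ± 0.42 (SE, adjusted p = 0.55) in WT.

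LHCB3, the third kind of subunit of the major antenna, fell evenly in both genotypes. Its intensities were 378, 428 and 548 in dcl1-9 dark against 1004, 1549 and 1340.1 in dcl1-9 light, and 604, 461 and 644 in WT dark against 1612, 1326 and 1819.5 in WT light. All dark arrays were far below all light arrays. The fall was 2.86-fold in dcl1-9 (log2 fold-change −1.52 ± 0.19 SE, adjusted p = 3.9e-05) and 2.79-fold in WT (−1.48 ± 0.19 SE, adjusted p = 3.7e-05).

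The minor antenna proteins, LHCB4, LHCB5 and LHCB6, connect the major antenna to the core of photosystem II. LHCB6 fell in both genotypes, to 207, 249 and 305 in dcl1-9 dark against 343, 596 and 645 in dcl1-9 light, and to 200.1, 265 and 266 in WT dark against 709.6, 517 and 912 in WT light. No dark array reached the lowest light array of its genotype, and the log2 fold-change was −1.02 ± 0.25 (SE, adjusted p = 0.007) in dcl1-9 and −1.52 ± 0.25 (SE, adjusted p = 3.0e-04) in WT. LHCB5 read 1839, 1917 and 1776 in dcl1-9 dark against 1761, 2479 and 2111 in dcl1-9 light, and 1555, 1518 and 1609 in WT dark against 2197, 2139 and 2565 in WT light. It overlapped between dark and light in dcl1-9 but not in WT, with log2 fold-changes of −0.19 ± 0.12 (SE, adjusted p = 0.33) in dcl1-9 and −0.56 ± 0.12 (SE, adjusted p = 0.0032) in WT.

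The LHCB4 copies also differed among themselves. LHCB4.1 was not called, at 0.12 in dcl1-9 (95% interval −0.11 to 0.34) and −0.06 in WT (95% interval −0.28 to 0.16), and LHCB4.2 was not called, at 0.37 ± 0.24 (SE, adjusted p = 0.32) in dcl1-9 and 0.25 ± 0.24 (SE, adjusted p = 0.52) in WT. LHCB4.3 read 11.4, 8.38 and 12.9 in dcl1-9 dark against 28.8, 34.5 and 38.8 in dcl1-9 light, and 13.9, 15.2 and 16.1 in WT dark against 42.9, 30.2 and 42.8 in WT light. The groups were separate in both genotypes, and the fall was 3.15-fold in dcl1-9 (log2 fold-change −1.65 ± 0.21 SE, adjusted p = 4.9e-05) and 2.54-fold in WT (−1.34 ± 0.21 SE, adjusted p = 2.3e-04).

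The antenna of photosystem I split into 4 genes that were not called and a pair that fell. LHCA1 to LHCA4 form the antenna belt of photosystem I, and 0 of these 4 genes were called in either genotype by limma. At an unadjusted p under 0.05, 0 passed in dcl1-9 and 1, LHCA1, passed in WT. LHCA4 had 95% intervals of −0.18 to 0.38 in dcl1-9 and −0.36 to 0.21 in WT, so that falls in signal of the size seen for LHCB3 or LHCB6 lay outside them. It was among the brightest members (group means of 2213 to 2362), and whether such signals were compressed was not tested. LHCA2 had intervals of −0.16 to 0.74 in dcl1-9 and −0.17 to 0.74 in WT, and LHCA3 of −0.43 to 0.53 in dcl1-9 and −0.61 to 0.35 in WT. The probe set of LHCA1 read only 8.40 to 21.1 in dcl1-9 and 10.6 to 36.4 in WT, close to the low end of the scale, and gave log2 fold-changes of −0.64 ± 0.31 (SE, adjusted p = 0.16) in dcl1-9 and −0.67 ± 0.31 (SE, adjusted p = 0.13) in WT.

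LHCA5 and LHCA6 are minor proteins that link photosystem I to the NADH dehydrogenase-like complex of the thylakoid. LHCA6 showed the deepest fall of all 63 members in both genotypes, to 29.3, 28.5 and 27.1 in dcl1-9 dark against 124, 251 and 249 in dcl1-9 light, and to 18.1, 23.1 and 21.1 in WT dark against 273, 108 and 339 in WT light. The dark arrays of a genotype lay close together and far below the light arrays. The fall was 7.01-fold in dcl1-9 (log2 fold-change −2.81 ± 0.35 SE, adjusted p = 3.6e-05) and 10.4-fold in WT (−3.38 ± 0.35 SE, adjusted p = 4.9e-06). LHCA5 read 255, 249 and 274 in dcl1-9 dark against 441, 447 and 546 in dcl1-9 light, and 457, 438 and 391 in WT dark against 598, 550.2 and 703 in WT light. Dark and light were again separate, with log2 fold-changes of −0.88 ± 0.14 (SE, adjusted p = 2.4e-04) in dcl1-9 and −0.52 ± 0.14 (SE, adjusted p = 0.0093) in WT.

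Set against each other as classes, antenna and core genes were called about equally often. In dcl1-9, 7 of 20 antenna genes and 9 of 22 core genes were lower in darkness, with 1 higher in each class, and the class medians were −0.21 for the antenna and −0.29 for the core. In WT, 10 of 20 antenna genes and 10 of 22 core genes were lower, again with 1 higher in each, and the medians were −0.54 for the antenna and −0.37 for the core. The falls were spread widely in both classes. The called falls of antenna genes ran from −0.88 to −2.81 in dcl1-9 and from −0.52 to −3.38 in WT, and those of core genes from −0.38 to −2.09 in dcl1-9 and from −0.36 to −2.25 in WT. Several core calls in dcl1-9 were small and rested on single arrays: the count of 9 was 4 without dcl1-9 light array 2, dcl1-9 light array 3 or dcl1-9 dark array 1, and 5 without dcl1-9 dark array 2.

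The mean log2 intensity of the antenna genes minus that of the core genes was also taken within each array, which no scaling of a whole array can alter. Darkness minus light, this difference moved by −0.13 in dcl1-9, with a pooled SD of 0.13 and overlapping groups, and by −0.28 in WT, with a pooled SD of 0.16 and no overlap. The overlap in dcl1-9 rested on light array 1, without which the shift was −0.22 and the groups were separate, as they also were without dcl1-9 dark array 2 (−0.17). Without dcl1-9 light array 2 it was −0.05. In WT the shift was −0.33 without light array 2 and −0.19 without light array 3. Leaving out LHCA5, LHCA6 and LHCB4.3 gave shifts of 0.11 in dcl1-9 and −0.10 in WT, both within the pooled SD. The median in place of the mean gave 0.34 in dcl1-9 and −0.05 in WT. These 3 genes, whose proteins are known to be scarce beside the other antenna proteins, therefore carried most of the shift in WT. Between the genotypes, dcl1-9 minus WT, the antenna minus core difference was −0.26 in light, with a pooled SD of 0.16. It was −0.29 without the same 3 genes and −0.35 with medians. Over all members the groups were barely separate, at −1.648 on dcl1-9 light array 2 and −1.642 on WT light array 2. Without the 3 genes they overlapped, at −1.554 on dcl1-9 light array 2 and −1.582 on WT light array 1. With all members, the difference in light was −0.17 without dcl1-9 light array 1, −0.16 without WT light array 3 and −0.22 without both low light arrays. None of these 3 settings gave overlap. In darkness it was −0.11, with a pooled SD of 0.12 and overlapping groups. The antenna mean itself ran from 7.02 to 7.83 in dcl1-9 light and from 7.56 to 8.37 in WT light, and so overlapped.

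**Figure D3:**
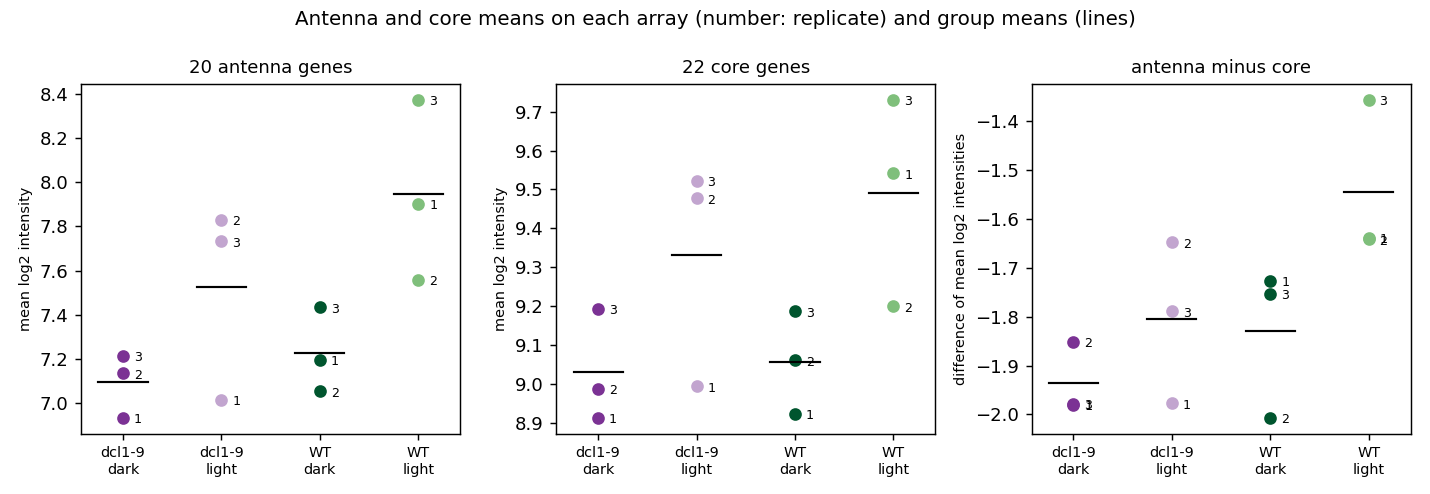
Mean log2 intensity (y axes) of the antenna genes, of the core genes, and their difference on each of the 12 arrays, in dcl1-9 dark, dcl1-9 light, WT dark and WT light (x axes), with the replicate number beside each point and a line at the group mean. Array 1 of dcl1-9 light and array 2 of WT light were the lowest of their groups for both classes, and the antenna minus core difference was lower on every dark array than on every light array in WT, and in dcl1-9 too once light array 1 is set aside.

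Among the 12 subunits of the photosystem I core, 5 were lower and 1 was higher in darkness in each genotype. The sharpest contrast was between the copies of PSAD, the subunit at which ferredoxin docks. PSAD2 rose, to 43.6, 52.02 and 69.2 in dcl1-9 dark against 10.1, 17.3 and 21.2 in dcl1-9 light, and to 29.4, 57.6 and 80.9 in WT dark against 21.9, 11.2 and 31.3 in WT light. PSAD1 fell, to 951, 907 and 1066 in dcl1-9 dark against 1247, 1332 and 1386 in dcl1-9 light, and to 628, 867 and 901 in WT dark against 1304, 1156 and 1177 in WT light. Dark and light were separate for both genes except for PSAD2 in WT, where 1 dark array lay below the highest light array. The log2 fold-change of PSAD2 was 1.80 ± 0.41 (SE, adjusted p = 0.0041) in dcl1-9 and 1.39 ± 0.41 (SE, adjusted p = 0.018) in WT, and that of PSAD1 was −0.44 ± 0.14 (SE, adjusted p = 0.029) in dcl1-9 and −0.62 ± 0.14 (SE, adjusted p = 0.0032) in WT. The WT call of PSAD2 was lost without WT light array 2, WT dark array 2 or WT dark array 3 (0.98 to 1.31, adjusted p = 0.060 to 0.096) and without both low light arrays (0.98, adjusted p = 0.054). The dcl1-9 call of PSAD1 was lost without dcl1-9 light array 2, dcl1-9 light array 3, dcl1-9 dark array 1 or dcl1-9 dark array 2 (−0.39 to −0.43, adjusted p = 0.074 to 0.11).

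PSAO, a small subunit that helps to bind mobile antenna to photosystem I, had the largest fall in this core. It read 189, 174 and 273 in dcl1-9 dark against 291, 442 and 512 in dcl1-9 light, and 165, 209 and 265 in WT dark against 582, 369.8 and 663 in WT light. The groups did not overlap, and the log2 fold-change was −0.96 ± 0.26 (SE, adjusted p = 0.014) in dcl1-9 and −1.32 ± 0.26 (SE, adjusted p = 0.0014) in WT. In dcl1-9 this call and those of PSAE1 and PSAH2 rested on single arrays: leaving out 1 of 4 dcl1-9 arrays (light array 2 or 3, dark array 1 or 2) gave PSAO adjusted p of 0.051 to 0.069, leaving out dcl1-9 light array 2, light array 3 or dark array 1 gave PSAE1 adjusted p of 0.076 to 0.11, and leaving out dcl1-9 dark array 2 gave PSAH2 an adjusted p of 0.050. PSAH2, another docking subunit for mobile antenna, gave −0.52 ± 0.14 (SE, adjusted p = 0.011) in dcl1-9 and −0.73 ± 0.14 (SE, adjusted p = 9.2e-04) in WT, and PSAE1, which takes part in electron transfer to ferredoxin, gave −0.49 ± 0.15 (SE, adjusted p = 0.024) in dcl1-9 and −0.77 ± 0.15 (SE, adjusted p = 9.6e-04) in WT. Their sister copies were not called: PSAH1 was at −0.01 in dcl1-9 and −0.21 in WT, and PSAE2 at −0.14 in dcl1-9 and −0.06 in WT, with adjusted p of 0.17 or more. PSAK, the remaining gene called lower in this core, gave −0.47 ± 0.11 (SE, adjusted p = 0.0058) in dcl1-9 and −0.64 ± 0.11 (SE, adjusted p = 4.6e-04) in WT.

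**Figure D4:**
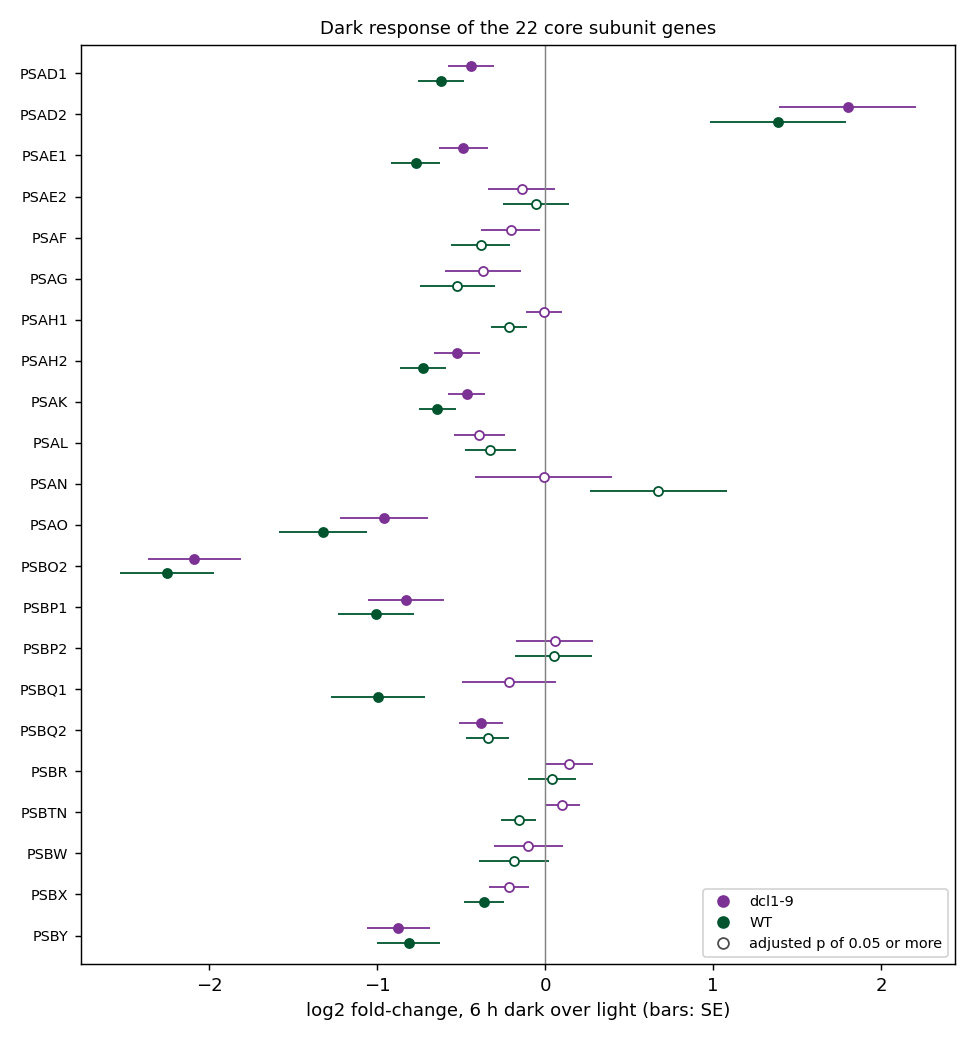
Log2 fold-change of darkness over light (x axis) for each of the 22 core subunit genes (y axis), with dcl1-9 as the upper and WT as the lower point of each gene, bars of 1 SE, and filled points for an adjusted p under 0.05. PSBO2 fell most in both genotypes, PSAD2 alone was called higher, and the genes not called lay between −0.39 and 0.14 in dcl1-9 and between −0.52 and 0.67 in WT.

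In photosystem II, the nuclear genes of the core code for the extrinsic proteins of the oxygen-evolving complex and for small membrane subunits. Of the 5 oxygen-evolving genes, 3 were lower in each genotype. PSBO2, a copy of the protein that stabilizes the manganese cluster, read 129.9, 146 and 135 in dcl1-9 dark against 344, 770.3 and 747 in dcl1-9 light, and 124, 176 and 147 in WT dark against 730.4, 507 and 930.0 in WT light. Every light array was far above every dark array, and the fall was 4.25-fold in dcl1-9 (log2 fold-change −2.09 ± 0.28 SE, adjusted p = 6.3e-05) and 4.76-fold in WT (−2.25 ± 0.28 SE, adjusted p = 2.5e-05). PSBO1, the other copy, falls outside the 63 because its annotation text lacks the words used, and it was not called, at −0.01 ± 0.11 (SE, adjusted p = 0.97) in dcl1-9 and −0.20 ± 0.11 (SE, adjusted p = 0.19) in WT.

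PSBP1 and the PSBQ genes code for the other extrinsic proteins, which hold calcium and chloride at the site of water splitting. PSBP1 read 573, 719 and 774 in dcl1-9 dark against 844, 1496 and 1415 in dcl1-9 light, and 839, 730.5 and 614 in WT dark against 1336, 1169.5 and 1943 in WT light. No dark array reached the light arrays, and the log2 fold-change was −0.83 ± 0.23 (SE, adjusted p = 0.014) in dcl1-9 and −1.004 ± 0.23 (SE, adjusted p = 0.0035) in WT. In dcl1-9 the adjusted p was 0.061 to 0.068 without dcl1-9 light array 2, dcl1-9 light array 3 or dcl1-9 dark array 1. PSBP2 was at 0.06 in dcl1-9 and 0.05 in WT and was not called. PSBQ1 gave −0.21 ± 0.28 (SE, adjusted p = 0.65) in dcl1-9 and −0.99 ± 0.28 (SE, adjusted p = 0.015) in WT, where the call was lost without WT light array 3 or WT dark array 3 (adjusted p = 0.062 to 0.063). PSBQ2 gave −0.38 ± 0.13 (SE, adjusted p = 0.045) in dcl1-9 and −0.34 ± 0.13 (SE, adjusted p = 0.065) in WT, and its dcl1-9 call was lost without any 1 of 9 arrays (all but WT light arrays 2 and 3 and dcl1-9 light array 1), with adjusted p of 0.050 to 0.19. Among the 5 small subunits, PSBY, a small membrane protein, fell in both genotypes, with log2 fold-changes of −0.87 ± 0.19 (SE, adjusted p = 0.003) in dcl1-9 and −0.81 ± 0.19 (SE, adjusted p = 0.0043) in WT.

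The 21 assembly and related genes held some of the steepest falls. In darkness, 7 were lower and 0 higher in dcl1-9, with 2 higher at an unadjusted p under 0.05, and 9 were lower and 1 was higher in WT, with class medians of −0.35 in dcl1-9 and −0.40 in WT. PSB28, which in cyanobacteria binds photosystem II while it is being assembled, read 26.3, 22.4 and 22.9 in dcl1-9 dark against 114.1, 116 and 163 in dcl1-9 light, and 21.9, 24.4 and 22.2 in WT dark against 202, 133 and 203 in WT light. The dark arrays of both genotypes lay within a narrow band, well below all light arrays. The fall was 5.44-fold in dcl1-9 (log2 fold-change −2.44 ± 0.20 SE, adjusted p = 6.4e-07) and 7.71-fold in WT (−2.95 ± 0.20 SE, adjusted p = 9.5e-08), with the smallest p of all 63 members in either genotype.

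LPA19, which helps to process the D1 protein while photosystem II is assembled, went the other way. It read 64.2, 47.4 and 58.3 in dcl1-9 dark against 40.98, 34.6 and 48.2 in dcl1-9 light, and 106, 66.2 and 117 in WT dark against 53.7, 34.9 and 41.5 in WT light. Dark and light overlapped in dcl1-9 and were separate in WT, with log2 fold-changes of 0.46 ± 0.23 (SE, adjusted p = 0.19) in dcl1-9 and 1.14 ± 0.23 (SE, adjusted p = 0.0019) in WT.

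Of the 10 genes of the PsbP-domain family, relatives of PSBP1, 5 were lower in dcl1-9 and 6 in WT, and 0 were higher, with 1 higher in each genotype at an unadjusted p under 0.05. At1g77090 read 27.3, 22.3 and 20.96 in dcl1-9 dark against 59.3, 71.4 and 86.8 in dcl1-9 light, and 23.00, 20.9 and 19.5 in WT dark against 92.01, 54.3 and 72.8 in WT light. Its groups did not overlap, and its log2 fold-change was −1.62 ± 0.21 (SE, adjusted p = 5.4e-05) in dcl1-9 and −1.76 ± 0.21 (SE, adjusted p = 1.9e-05) in WT. At4g15510 gave −1.05 ± 0.20 (SE, adjusted p = 0.0014) in dcl1-9 and −1.14 ± 0.20 (SE, adjusted p = 5.9e-04) in WT, and At5g11450 gave −1.04 ± 0.20 (SE, adjusted p = 0.0013) in dcl1-9 and −1.05 ± 0.20 (SE, adjusted p = 9.5e-04) in WT. At2g28605 gave −0.77 ± 0.24 (SE, adjusted p = 0.028) in dcl1-9 and −1.25 ± 0.24 (SE, adjusted p = 0.001) in WT, and in dcl1-9 its adjusted p was 0.058 to 0.13 without light array 2, light array 3, dark array 1 or dark array 2. In WT the class count of 9 lower genes was 5 without WT light array 1.

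Because members of 1 family answered darkness differently, the ratio between copies was compared within each array. All 22 pairs within the PSAD, PSAE, PSAH, PSBO, PSBP, PSBQ, LHCB1, LHCB2 and LHCB4 families were tested, with dark and light labels exchanged within each genotype in an exact two-sided permutation test over 400 regroupings. The ratio changed in 19 of 22 pairs by the exact permutation test (adjusted p = 0.0058 each, from p = 0.005, the smallest this test can give), and changed in the same direction in both genotypes in each of these. In 3 of the 19 the ratio is to LHCB1.1, which stayed near the low end of the scale, so that it follows the other copy alone. Of the 18 pairs without LHCB1.1, 16 passed. Some of these also hold a copy not called in darkness, such as PSBO1, LHCB4.1 and the dim PSBP2 (17.1 to 30.1). In their ratios to PSBO2, LHCB4.3 and PSBP1, the change came mostly from the other copy. PSBO1 and PSAH1 were bright, with group means of 2014 to 2330 and 1993 to 2299, and compression of such signals was not tested. The ratio of PSAD2 over PSAD1 rose by 2.24 in dcl1-9 and 2.00 in WT on the log2 scale. That of LHCB1.5 over LHCB1.4 fell by 3.55 in dcl1-9 and 2.81 in WT, and that of PSBO2 over PSBO1 fell by 2.08 in dcl1-9 and 2.05 in WT. LHCB4.3 over LHCB4.1 fell by 1.77 in dcl1-9 and 1.29 in WT. PSBQ2 over PSBQ1 (p = 0.32), LHCB1.3 over LHCB1.1 (p = 0.83) and LHCB4.2 over LHCB4.1 (p = 0.11) did not pass the permutation test. Among the families of more than 2 copies the pairs share members, so the 22 tests are not independent.

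**Figure D5:**
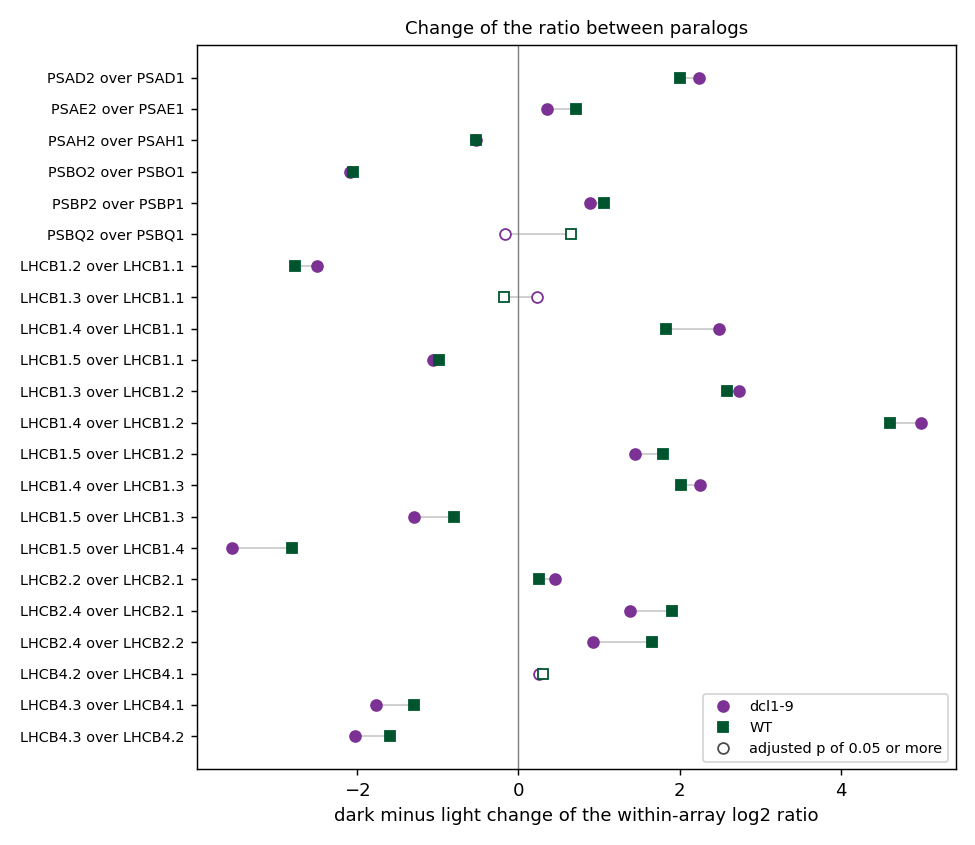
Change of the within-array log2 ratio between copies, darkness minus light (x axis), for each of 22 pairs (y axis), with circles for dcl1-9 and squares for WT, and open symbols for pairs that did not pass the permutation test. In the 19 pairs with filled symbols both genotypes lay on the same side of 0.

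Between the genotypes few of these genes were called. In light, 0 of 63 members were higher and 2 were lower in dcl1-9 than in WT, where 5.92% of all probe sets were higher and 3.33% were lower. In darkness, 0 were higher and 1 was lower, where 4.45% of all probe sets were higher and 3.02% were lower. With the replicate number as a block, the counts of lower members were larger in both light and darkness, as given in the last section. At an unadjusted p under 0.05 in limma, 9 members were lower and 0 higher in light, and 4 were lower and 1 higher in darkness. The study's criterion, a fold-change whose 90% lower bound exceeds 1.2, was recomputed from plain group means, without the weighting of replicates used in the study. By this form, 0 were higher in light, and 1 was higher and 2 were lower in darkness. The number lower in light by this form is not given here. Over all probe sets at an unadjusted p under 0.05, 15.4% were lower and 12.8% higher in light, and 14.4% were lower and 11.8% higher in darkness. The members' median was −0.21 in light and −0.04 in darkness, beside −0.14 in light and −0.12 in darkness over all probe sets. Single arrays moved it: in light it was −0.41 without WT light array 2, −0.08 without WT light array 3 and −0.06 without dcl1-9 light array 1, where all probe sets gave −0.10, −0.15 and −0.08 in that order, and it was −0.21 without both low light arrays. In darkness it ran from −0.10 to 0.04 as single dark arrays were left out. Of the 9 major antenna genes, 4 were lower in light at an unadjusted p under 0.05 and 0 were called, with a median of −0.67. That median was −0.92 without WT light array 2, −0.40 without WT light array 3, −0.37 without dcl1-9 light array 1 and −0.61 without both low light arrays.

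In light, PSBQ1 read 35.05, 67.8 and 91.2 in dcl1-9 against 113.85, 100.5 and 149 in WT, with dcl1-9 light array 1 far below the rest and no overlap. The log2 difference was −0.99 ± 0.28 (SE, adjusted p = 0.041), and −0.60 with an adjusted p of 0.12 without that array. The call was also lost without WT light array 1 or 3, WT dark array 2, dcl1-9 light array 2 or dcl1-9 dark array 1 or 2 (adjusted p = 0.052 to 0.15). At4g37230, annotated as a relative of PSBO, read 5.63, 12.1 and 9.78 in dcl1-9 against 18.2, 15.4 and 18.6 in WT, all near the low end of the scale, and gave −0.99 ± 0.26 (SE, adjusted p = 0.032). That call was lost without dcl1-9 light array 1 (−0.68), dcl1-9 light array 3, WT light array 1 or WT light array 3 (adjusted p = 0.054 to 0.11). Without both low light arrays 0 members were called in light. Without WT light array 2 alone, 7 members were called lower. No share of all probe sets is given for these refits.

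In darkness LHCA5 was the 1 member called. It read 255, 249 and 274 in dcl1-9 against 457, 438 and 391 in WT, a log2 difference of −0.72 ± 0.14 (SE, adjusted p = 0.0074), and the groups were well apart. In light it gave −0.37 ± 0.14 (SE, adjusted p = 0.097), without overlap between the genotypes. The call in darkness held without any 1 array, but not in a test against a 1.2-fold change (adjusted p = 0.086).

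The difference of the dark responses, dcl1-9 minus WT, was called for 0 of 63 members in either direction by limma, where 0.0144% of all probe sets were called above 0 and 0.0898% below. At an unadjusted p under 0.05 in limma, 1 member passed, above 0. Over all probe sets, 2.59% passed above 0 and 3.14% below. On simulated data the test of this difference recovered 13% of log2 differences of 1 and 64% of those of 2 over 27827 genes. These shares were not computed for the members alone, so they do not show how many differences were missed among them. In direction, 51 of 63 members had a difference above 0, that is, a smaller fall or a larger rise in dcl1-9, against 50.2% of all probe sets. The antenna accounted for 17 of 20 and the core for 17 of 22. Without dcl1-9 light array 1 the count was 30 of 63, and without WT light array 3 it was 34 of 63. Without both low light arrays it was 46 of 63. The largest single differences were those of LHCB2.2, at 1.004 ± 0.47 (SE, adjusted p = 0.88), and At4g37230, at 0.92 ± 0.37 (SE, adjusted p = 0.75).

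Other genes of the thylakoid shared the falls in part. Among 11 light-harvesting-like and photoprotection genes, 6 were lower in dcl1-9 darkness and 8 were lower and 1 higher in WT darkness. Their medians were −1.11 in dcl1-9 and −1.28 in WT. Over all probe sets, 12.9% were lower in dcl1-9 darkness, and 14.5% were lower and 12.8% higher in WT darkness. PSBS, which switches the antenna to heat dissipation, read 413, 348 and 394 in dcl1-9 dark against 1572, 1629.9 and 1682 in dcl1-9 light, and 232, 345 and 383 in WT dark against 1506, 1396 and 1536 in WT light. Dark and light were far apart, at −2.08 ± 0.16 (SE, adjusted p = 3.6e-07) in dcl1-9 and −2.24 ± 0.16 (SE, adjusted p = 1.5e-07) in WT. ELIP1, an early light-induced protein, gave −2.22 ± 0.41 (SE, adjusted p = 0.0011) in dcl1-9 and −1.27 ± 0.41 (SE, adjusted p = 0.033) in WT. It was dim, with dark arrays at 7.99 to 10.8 in dcl1-9 and 9.98 to 12.15 in WT. Its dcl1-9 light arrays read 98.1, 20.65 and 36.1, so the size of that fall leaned on light array 1. The difference of its responses was not called (adjusted p = 0.97 in limma). LIL3.1, which is needed for chlorophyll synthesis, gave −1.33 ± 0.21 (SE, adjusted p = 2.4e-04) in dcl1-9 and −1.70 ± 0.21 (SE, adjusted p = 2.1e-05) in WT. The single gene that rose, in WT, was OHP2, at 0.96 ± 0.25 (SE, adjusted p = 0.0085).

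For the next lists, the shares of all probe sets in darkness were 12.9% lower and 10.8% higher in dcl1-9. In WT they were 14.5% lower and 12.8% higher. Of 8 genes for electron carriers and the cytochrome complex, 3 were lower in dcl1-9 and 4 in WT, and 0 were higher. Their medians were −0.42 in dcl1-9 and −0.60 in WT. LFNR2, a ferredoxin reductase, gave −2.06 ± 0.15 (SE, adjusted p = 2.6e-07) in dcl1-9 and −2.46 ± 0.15 (SE, adjusted p = 4.1e-08) in WT, and FD1, a ferredoxin, gave −1.67 ± 0.16 (SE, adjusted p = 2.9e-06) in dcl1-9 and −1.80 ± 0.16 (SE, adjusted p = 1.1e-06) in WT. LFNR2 was also higher in dcl1-9 than in WT, by 0.59 ± 0.15 (SE, adjusted p = 0.028) in light and 0.99 ± 0.15 (SE, adjusted p = 0.002) in darkness. Of 3 nuclear genes of the plastid ATP synthase, 1 was lower in dcl1-9 and 3 in WT, with ATPC1 at −0.84 ± 0.15 (SE, adjusted p = 8.4e-04) in dcl1-9 and −0.82 ± 0.15 (SE, adjusted p = 7.6e-04) in WT. The 7 genes for the import and phosphorylation of antenna proteins had medians of 0.02 in dcl1-9 and 0.20 in WT, beside 0.06 over all probe sets. Of these 7, 1 was higher and 1 lower in dcl1-9 and 2 were higher in WT. Those that rose included CPSRP43, which carries antenna proteins to the thylakoid, at 0.57 ± 0.18 (SE, adjusted p = 0.03) in dcl1-9 and 0.55 ± 0.18 (SE, adjusted p = 0.032) in WT. ALB3, which inserts antenna proteins into the membrane, gave 0.49 ± 0.20 (SE, adjusted p = 0.091) in dcl1-9 and 0.57 ± 0.20 (SE, adjusted p = 0.043) in WT. CPFTSY, the receptor for the carrier, gave −0.72 ± 0.20 (SE, adjusted p = 0.017) in dcl1-9 and −0.47 ± 0.20 (SE, adjusted p = 0.1) in WT.

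Of the 9 nuclear regulators, 2 were higher and 1 lower in dcl1-9, and 1 was higher and 2 lower in WT. Over all probe sets, 10.8% were higher and 12.9% lower in dcl1-9, and 12.8% higher and 14.5% lower in WT. The medians of this list were 0.13 in dcl1-9 and 0.10 in WT, beside 0.06 over all probe sets. Counts in so short a list do not set it apart from the array. CGA1 gave 1.37 ± 0.45 (SE, adjusted p = 0.037) in dcl1-9 and 1.33 ± 0.45 (SE, adjusted p = 0.037) in WT. Its WT groups overlapped, at 48.5, 28.7 and 61.5 in darkness against 34.0, 8.77 and 17.8 in light. In dcl1-9 they were separate, but the light arrays read only 14.1, 6.98 and 6.74, near the low end of the scale. SIG5, a plastid sigma factor, gave −0.91 ± 0.22 (SE, adjusted p = 0.0068) in dcl1-9 and −0.79 ± 0.22 (SE, adjusted p = 0.015) in WT. GLK2, a factor that drives antenna genes, read 263, 270.3 and 302 in dcl1-9 dark and 125, 146 and 195 in dcl1-9 light, against 411, 404 and 441 in WT dark and 297, 248 and 445 in WT light. It was lower in dcl1-9 than in WT on every light array, at −1.07 ± 0.20 (SE, adjusted p = 0.007). It rose in dcl1-9 darkness by 0.87 ± 0.20 (SE, adjusted p = 0.0052). SIG1 went the other way between the genotypes. It was higher in dcl1-9 than in WT by 0.82 ± 0.21 (SE, adjusted p = 0.028) in light and 0.86 ± 0.21 (SE, adjusted p = 0.025) in darkness. Of 20 plastid-encoded photosystem subunits 2 were on the array, PSBA and PSBE, and neither was called.

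The range of the arrays bears on what could be seen. The members with a mean intensity of at least 2000 numbered 4, of which 1 was called in each genotype, and their largest log2 fold-change was 0.47 in dcl1-9 and 0.64 in WT. Over all probe sets, 23.1% of the 39 with a mean of at least 2000 were called in dcl1-9 and 35.9% in WT, against 34% in dcl1-9 and 39% in WT of the 18102 between 20 and 2000. Whether the brightest members were compressed was not tested. The 3 members with a mean under 20, LHCA1, LHCB1.1 and At4g37230, were not called in either dark comparison. At2g07688, a pseudogene on chromosome 2 that resembles the gene for D1, held the same 12 values as plastid PSBA, at 5430 to 6386, so its signal cannot be told apart from that of PSBA. No other member shared its values with another probe set.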

How the data were processed

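Leaf RNA was hybridised to 12 Affymetrix Arabidopsis Gene 1.1 ST arrays. The deposited intensities were made by the authors in dChip, with gene-level probe sets of Brainarray version 15, invariant-set normalization to a baseline array and a perfect-match model, after quality control in Expression Console (version not given in the sources used here). Background correction cannot be redone from them. The deposited fold-changes, confidence bounds and group means were not used. Normalized values under 1 were set to 1 and log2 transformed, and 1 model over all 27827 probe sets and 4 groups was fitted with limma 3.58.1 (R 4.3.3), with an intensity trend. All p-values were adjusted by Benjamini-Hochberg across the whole array. The fit was tested on simulated data over 27827 genes. For WT dark against WT light it recovered 41% of log2 changes of 1 and 91% of log2 changes of 2. For the difference of responses it recovered 13% and 64%. The mean intensity was under 20 for 34.8% of all probe sets but for only 3 members. The recovered shares were not computed for the members alone, so they do not give the recovery among them. For the deposited values, the number of arrays limits the precision, and scan batches were not analysed here.

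Groups came from the labels. The members, gene lists and tests were chosen with earlier results of these data known. All antenna genes and paralog pairs were named, and for other members the 5 largest changes past the test per comparison, with 2 per other list. PSBX, PSB29, PSAK, At3g05410, At2g07688 and OHP2 fall outside that rule and were named after their values were seen. PSBO1 and LHCB7, whose annotation lacks the words searched, stayed outside the 63. Gene symbols of all 63 matched RefSeq (TAIR10.1). Alternatives covered the offset, normalization, filter, variance model, groups fitted, replicate number and fold threshold. A recomputed form of the study's criterion was also run, as was each array left out. Leaving out both low light arrays was added after seeing the data.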

Additional observations from a re-analysis of the deposited data

How the results depend on the processing

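No called member changed direction under the alternatives run. Shares of all probe sets called are given for the main fit alone. Tested against a 1.2-fold change, the lower members in darkness numbered 13 in dcl1-9 (core 2, assembly and related 4), the lower assembly and related genes in WT numbered 5, and 0 members were called lower in dcl1-9 against WT in light or in darkness. The 2 members called lower in dcl1-9 light became 1 after quantile normalization, with probe sets of a mean of at least 20, or without the intensity trend, and 0 with the compared groups alone or without both low light arrays. In darkness, the recomputed form of the study's criterion gave 1 member higher and 2 lower in dcl1-9 than in WT, and 2 were lower without both low light arrays. The antenna minus core shift was −0.05 in WT and 0.34 in dcl1-9 with medians over members, 0.04 for dcl1-9 against WT in darkness with medians, and −0.10 in WT and 0.11 in dcl1-9 without LHCA5, LHCA6 and LHCB4.3. The cause of these moves was not tested.

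The sample labels do not say what a shared replicate number marks. The headers of the second deposited table repeat the same 3 codes in every group, also without saying what they mark, and 14 of 18 same-numbered pairs of arrays deviated together with a correlation over 0.1 (0.031 to 0.337, against −0.32 to 0.12 for the 36 other pairs). WT dark array 1 correlated better with dcl1-9 dark array 2 (0.062) than with dcl1-9 dark array 1 (0.048). Between the genotypes, the arrays numbered 1 correlated at 0.074 in light and 0.048 in darkness. Whether a number marks a shared batch was not tested. With the replicate number as a block, 4 members were higher in dcl1-9 darkness, and 5 were lower in dcl1-9 than in WT in light and 3 in darkness.

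With 1 array left out at a time, the members called in WT darkness ranged over 1 to 3 higher and 23 to 34 lower, and the lower assembly and related genes over 5 to 10. In dcl1-9 darkness the lower members ranged over 15 to 24 and the lower core genes over 4 to 9. Members lower in dcl1-9 than in WT ranged over 0 to 7 in light (0 without WT light array 1, WT light array 3 or dcl1-9 light array 1, and 7 without WT light array 2) and over 1 to 2 in darkness. The ratio between paralogs passed in 19 to 20 of 22 pairs, and LHCB2.2 over LHCB2.1 missed the threshold on the log2(value + 16) scale (adjusted p = 0.064 by the permutation test). Low signal limits what could be called: the mean was under 20 for 34.8% of all probe sets, of which 4.5% were called in dcl1-9 darkness and 5.58% in WT darkness.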
